A study of Mus musculus with 8 samples.

Results

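The 367 T cells described here were found among 23996 cells of 8 single-cell RNA libraries made from mouse mesentery and epididymal adipose tissue. They were selected on measured values. A barcode counted as a T cell when it had at least 500 UMIs (unique molecular identifiers, which count captured RNA molecules), at least 300 genes and at most 10% mitochondrial UMIs. It also needed a UMI of at least 2 of the 5 genes Cd3d, Cd3e, Cd3g, Lck and Trbc2, and no UMI of Cdh5, Cd79a or Csf1r, which mark endothelial cells, B cells and macrophages.

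The study sorted YFP-positive cells by flow cytometry to obtain endothelium and compared 2 tissues on 2 diets. All mice were male ROSA26-eYFP+/+ Cdh5-CreERT2+ animals, so tamoxifen switches on the reporter in cells with Cdh5 promoter activity, and every group carried the reporter, the Cre and the tamoxifen. Tamoxifen food began at 6 weeks of age and lasted 2 weeks. At 8 weeks the mice began to eat normal chow with 5.8% fat or a high fat diet with 60% fat for 12 to 13 weeks. The 4 groups were mesentery on chow, mesentery on high fat diet, epididymal adipose on chow and epididymal adipose on high fat diet, each with 2 libraries, and tissue of 6 mice was pooled for a library. The 2 libraries of a group come from 2 runs of the whole experiment, called run A and run B here, so a library is 1 pool and cells are not replicates. The labels name the cells of all 8 libraries as endothelial. The reporter is in neither feature list, so YFP could not be checked in the T cells, and the sort gate was not analysed here. Tissue was digested in the presence of actinomycin D, a blocker of transcription.

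T cells recognise antigen through a receptor whose chains are held in the membrane by the CD3 proteins and whose signal is passed on by the kinase Lck. Naive T cells circulate between blood and lymph nodes. They carry the lymph node homing receptor Ccr7 and the transcription factors Klf2, Tcf7 and Lef1. T cells that have met antigen lose much of that programme, and effector and memory cells make chemokines such as Ccl5 and granule proteins such as Nkg7 and the granzymes. Visceral adipose tissue is known for resident memory and regulatory T cells, and the mesentery carries lymph nodes and lymphatic vessels.

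The 5 genes of the rule are a description only. Trbc2, a constant segment of the receptor beta chain, had a UMI in 93.7% of the 367 cells, Cd3d in 85.8%, Cd3g in 84.7%, Lck in 69.2% and Cd3e in 63.5%. Of the cells, 139 carried all 5 genes, 121 carried 4, 64 carried 3 and 43 carried 2. Just outside the rule, 68 cells had 1 of the genes and none of the excluded ones. Trac, the alpha chain constant segment and not part of the rule, had a UMI in 89.9% of the cells with 5 markers, in 41.9% of those with 2 and in 10.3% of those with 1. Another 31 cells had at least 2 markers and were left out for an excluded gene, 29 of them for Cdh5, 2 for Cd79a and 1 for Csf1r, with 1 of the cells counted under more than 1 gene. Those cells were not analysed further.

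Genes outside the rule matched the label. The haematopoietic phosphatase Ptprc (CD45) had a UMI in 88.8% of the T cells and in 0.339% of 17101 endothelial barcodes, which had a UMI of Cdh5 and none of the 5 T cell markers, Cd79a or Csf1r. Trac stood at 75.7% against 0.246%, the CD45-associated gene Ptprcap at 68.7% against 0.240% and the alternative beta chain segment Trbc1 at 55.3% against 0.053%. Endothelial genes were mostly low. Cldn5, a tight junction gene, had a UMI in 3.81% of T cells and 81.7% of endothelial barcodes, Egfl7 in 5.18% and 89.9%, Kdr in 1.63% and 69.6%, and Ly6c1 in 4.90% and 77.2%. The adhesion gene Pecam1 was found in 18.3% of T cells and in 87.7% of endothelial barcodes, and the fatty acid binding gene Fabp4, abundant in capillary endothelium, in 34.9% and 87.8%. The B cell gene Ms4a1 and the macrophage genes C1qc, Adgre1, Mrc1 and Ccl6 had no UMI in 367 cells, which allows a share of cells with a UMI of up to 0.817% and does not limit the share that express the gene. Ighm, the IgM heavy chain gene, was the exception among the B cell genes, with a UMI in 37.1% of T cells against 7.60% of endothelial barcodes. Ctss, a protease gene listed for macrophages, was the other, at 33.2% against 2.96%. Listed fibroblast, red cell and granulocyte genes had fewer than 20 UMIs each over all T cells.

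Libraries held 992 to 5659 cells. The median T cell of a library had 1244.5 to 5265 UMIs, and in mesentery as a whole the median was 3408 UMIs against 1739 in adipose, so a gene is more easily missed in an adipose T cell. Run A libraries held fewer UMIs in total, 3461360 to 6714473 against 18829960 to 36779289 in run B, and also fewer barcodes. The median cell of a library had 1448 to 3441 UMIs in run A and 3425.5 to 4700 in run B. In mesentery on chow the runs were alike in this, at 3441 and 3425.5. The mitochondrial limit took out 22.8 to 30.8% of the barcodes of run A libraries against 5.4 to 8.8% in run B. Of the T cells, 11 were among the 766 barcodes scored as doublets. Of the barcode sequences, 75 occurred in more than 1 library; 7 T cells carry such a sequence, and none was a T cell in both libraries of a pair.

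T cells were a small share of every sorted population, largest in the mesentery of run A. In mesentery on chow they made up 5.74% of 1567 cells in run A (exact 95% interval 4.64 to 7.01%) and 1.44% of 5134 in run B (1.13 to 1.81%). In mesentery on high fat diet the shares were 8.57% of 992 (6.90 to 10.5%) and 1.64% of 2992 (1.21 to 2.16%). In adipose on chow they were 0.938% of 1919 (0.557 to 1.48%) and 0.0707% of 5659 (0.0193 to 0.181%), the latter being 4 cells. In adipose on high fat diet they were 2.27% of 1324 (1.53 to 3.22%) and 0.386% of 4409 (0.225 to 0.617%). Intervals are Clopper-Pearson and cover counting error only.

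The mesentery had the higher share within every one of the 4 pairs of same diet and run, but the tissues overlapped across runs. Over all libraries the T cell share was 4.35% ± 3.44 (SD, n = 4) in mesentery and 0.915% ± 0.969 (SD, n = 4) in adipose. The difference in mean log odds was 1.90, with a two-sided exact permutation p of 0.0857 and an adjusted p of 0.286 over the 10 share tests. It was 1.61 within run A and 2.18 within run B, and with pairs of same diet and run kept together the exact p was 0.125. High fat diet had the higher share in 4 of 4 pairs of same tissue and run, at 3.21% ± 3.65 (SD, n = 4) against 2.05% ± 2.53 (SD, n = 4). The log odds difference for diet was 0.76 with an exact permutation p of 0.514 (adjusted 0.857), and 0.125 with the pairs kept together. This is the smallest p that 4 pairs allow. Without the adipose chow library of run B, the one with 4 T cells, the difference for diet was -0.05. Run A as a whole had 3.84% T cells and run B 0.792%, and B cells moved the same way, at 3.48% and 0.890%.

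**Figure D1:**
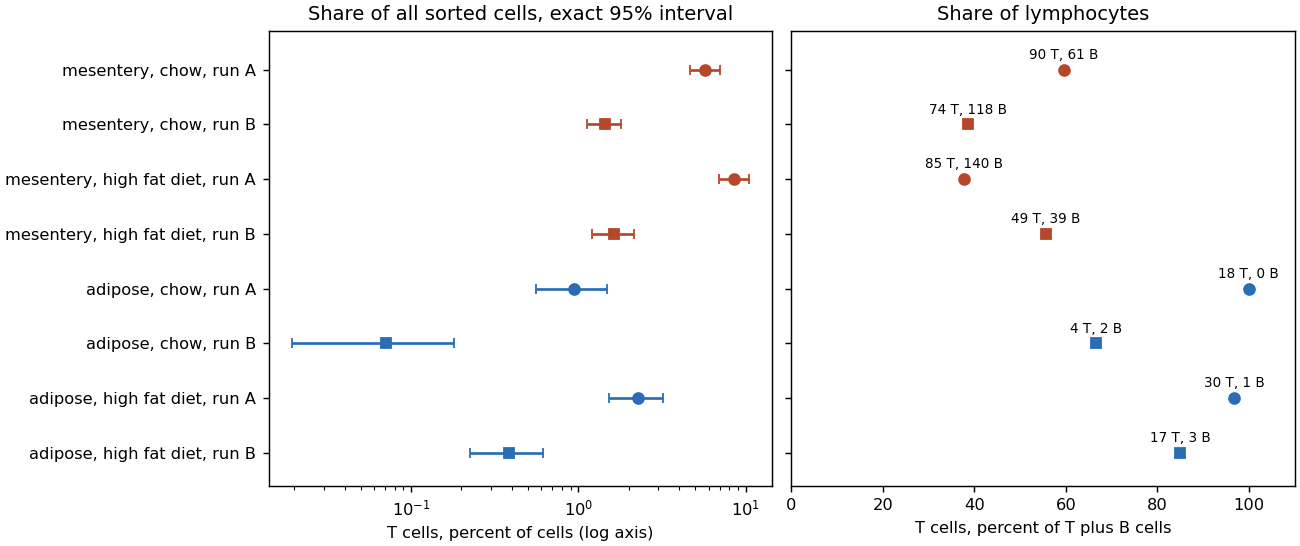
T cells in each of the 8 libraries. The left panel gives T cells as a percentage of cells on a log axis with exact 95% intervals, and the right panel T cells as a percentage of T plus B cells with the numbers of both; circles are run A and squares run B, brown is mesentery and blue adipose. Mesenteric libraries lie at 37.8 to 59.6% on the right and adipose libraries at 66.7 to 100%.

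The lymphocytes of the adipose sort were mostly T cells, while mesentery held T and B cells in similar numbers. B cells were counted as cells with at least 2 of Cd79a, Cd79b, Ms4a1 and Ebf1 and no UMI of Cdh5, Cd3e or Csf1r, a rule set after the files had been seen. The chow mesentery had 61 B cells in run A and 118 in run B, and the high fat diet mesentery 140 and 39. Adipose had 0 and 2 B cells with chow, and 1 and 3 with the high fat diet; 0 of 1919 cells allows a B cell share of up to 0.156%. T cells were 47.9% ± 11.4 (SD, n = 4) of T plus B cells in mesentery and 87.1% ± 15.1 (SD, n = 4) in adipose. The tissues did not overlap. The exact permutation p of 0.0286 is the smallest that 4 against 4 libraries allow, and it was 0.143 after adjustment over the 10 tests and 0.125 with the 4 pairs kept together.

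The T cells were sorted by co-receptor as far as their UMIs allow. Cd8a and Cd8b1 encode the CD8 co-receptor of cytotoxic cells, and Cd4 that of helper and regulatory cells. Of 367 cells, 144 had a UMI of Cd8a or Cd8b1 and none of Cd4 (the Cd8 gate), 59 had Cd4 and neither Cd8 gene (the Cd4 gate), none had both, and 164 had none of the 3. In mesentery the gates held 37 Cd8 and 16 Cd4 cells for chow in run A, 33 and 14 for chow in run B, 32 and 15 for high fat diet in run A, and 15 and 13 for high fat diet in run B. In adipose they held 7 and 0 for chow in run A, 15 and 0 for high fat diet in run A, and 5 and 1 for high fat diet in run B. Only 1 of the 59 Cd4-gated cells was therefore from adipose. When every cell was thinned to 500 UMIs, Cd8-gated cells made up 85.7% ± 18.9 (SD, n = 4) of gated cells in mesentery and 91.7% ± 14.4 (SD, n = 3) in adipose, an exact permutation p of 0.886 (adjusted 0.971). The log odds, with 0.5 added to each count, differed by 0.19 toward mesentery, the opposite sign to the means. Thinning left 9 Cd4-gated cells in all, so a difference in the Cd4 share was not detectable at this depth. Unthinned, the log odds difference was -1.85, toward adipose.

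Markers of other T cell kinds were rare. Foxp3, the defining factor of regulatory T cells, had a UMI in 16 cells, 15 of them mesenteric (5, 4, 4 and 2 cells per library) and 1 from adipose on chow. Adipose on high fat diet had 0 of 30 and 0 of 17 cells, which allows shares of cells with a UMI of up to 10.0 and 17.6%. These limits concern detection, not expression: after thinning, 2 of the 16 cells kept a UMI, and no difference between tissues could be read. Of the 16 Foxp3 cells, 9 also had Ctla4, 9 Ikzf2, 8 Tnfrsf4 and 6 Cd4, and none had Cd8a or Cd8b1. The receptor of interleukin 33, Il1rl1, which marks regulatory T cells of adipose tissue and also innate lymphoid cells of type 2, had a UMI in 14 cells, 9 mesenteric and 5 adipose, none of them with Foxp3. Of these 14, 12 had Gata3 and 13 S100a4, but 4 had Trac. Trdc, the constant segment of the receptor delta chain, was found in 16 cells, 15 of them mesenteric; 10 of these had Maf and 5 the delta variable segment Trdv4.

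The segments and cytokines that would separate further kinds were near the detection limit. Of 176 variable segment genes of the T cell receptor, 63 had a UMI in T cells, for 243 UMIs in all. Trdv4 (31 UMIs in 8 cells) and Trgv2 (20 UMIs in 8 cells) led, and Trbv2 and Trbv12-2 had 12 UMIs each. Among cytokines and their regulators, Gata3 had a UMI in 16.3% of cells, Ifng in 8.72% and the type 1 factor Tbx21 in 4.90%, Il17a in 2 cells, and Il13 and Il17f in none. Of the checkpoint genes, Tox had a UMI in 19.3%, Lag3 in 4.63% and Pdcd1 in 4.36% of T cells. NK cell genes were sparse too, with Klra7 in 2.72%, Fcer1g in 2.72% and Ncr1 in 0.545%. Cells with Mki67 or Top2a, genes of dividing cells, numbered 17, of which 9 had Ccl5 and 15 Trac.

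Homing and lipid genes complete the profile. The integrin chain Itgb7, part of the gut-homing integrin, had a UMI in 47.7% of T cells and its partner Itga4 in 34.6%, the selectin ligand Selplg in 49.9% and the gut homing receptor Ccr9 in 6.81%, against 0.199 to 0.520% of endothelial barcodes for these 4 genes. Of the lipid list, the fat oxidation enzyme Acaa2 had a UMI in 16.3% of T cells, against 31.1% of endothelial barcodes. The endothelial fatty acid transporter Cd36 had one in 2.45%, against 77.6% of endothelial barcodes.

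The clearest pattern among the T cells was between the tissues: mesenteric T cells more often had a UMI of naive genes and adipose T cells one of Ccl5. A UMI of Ccr7, Lef1 or Tcf7 was found in 86.6% of 298 mesenteric T cells (exact interval 82.2 to 90.2%) and in 40.6% of 69 adipose ones (28.9 to 53.1%). These shares pool several libraries, and the intervals cover counting error only. Library counts are in the order chow A, high fat diet A, chow B, high fat diet B. They were 81 of 90, 73 of 85, 63 of 74 and 41 of 49 in mesentery. In adipose they were 7 of 18, 7 of 30, 1 of 4 and 13 of 17. Adipose on high fat diet in run B, at 76.5%, was therefore near mesentery of that diet and run, at 83.7%. After thinning the shares were 46.7, 48.2, 36.5 and 26.5% in mesentery (chow A, high fat diet A, chow B, high fat diet B) and 11.1, 6.67 and 17.6% in adipose (chow A, high fat diet A, high fat diet B). The tissues did not overlap, at 39.5% ± 10.1 (SD, n = 4) and 11.8% ± 5.52 (SD, n = 3). The exact permutation p of 0.0286 is the smallest that 4 against 3 libraries allow, with an adjusted p of 0.143. With the 3 pairs kept together the exact p was 0.25, the smallest they allow. The difference in log odds was 2.06 within run A and 0.65 within run B. The same 3 genes gave a share of 0.684% in endothelial barcodes, whose median depth was 4181 UMIs. Diet made a difference of -0.37 in log odds with an exact permutation p of 0.686 (adjusted 0.857).

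Ccl5 showed the reverse. It had a UMI in 15.6, 15.3, 8.11 and 12.2% of the T cells of the mesenteric libraries, in the same order, and in 61.1, 83.3 and 52.9% of those of adipose. In the adipose chow library of run B, 2 of 4 cells had it. In endothelial barcodes the share was 0.444%. Within the Cd8 gate, 27 of 117 mesenteric cells had Ccl5 (23.1%, exact interval 15.8 to 31.8%) and 27 of 27 adipose cells (100%, 87.2 to 100%). With cells thinned the shares were 20.5 and 96.3%, although the adipose cells of the gate were shallower, with a median of 1790 UMIs against 3987. In the same gate at least 1 of the 3 naive genes was found in 89.7% of mesenteric and 37.0% of adipose cells. With cells thinned these naive shares were 35.9 and 11.1%. Among cells in neither gate, Ccl5 stood at 8.13% of 123 mesenteric and 46.3% of 41 adipose cells. These shares pool the cells of several libraries and carry no test.

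**Figure D2:**
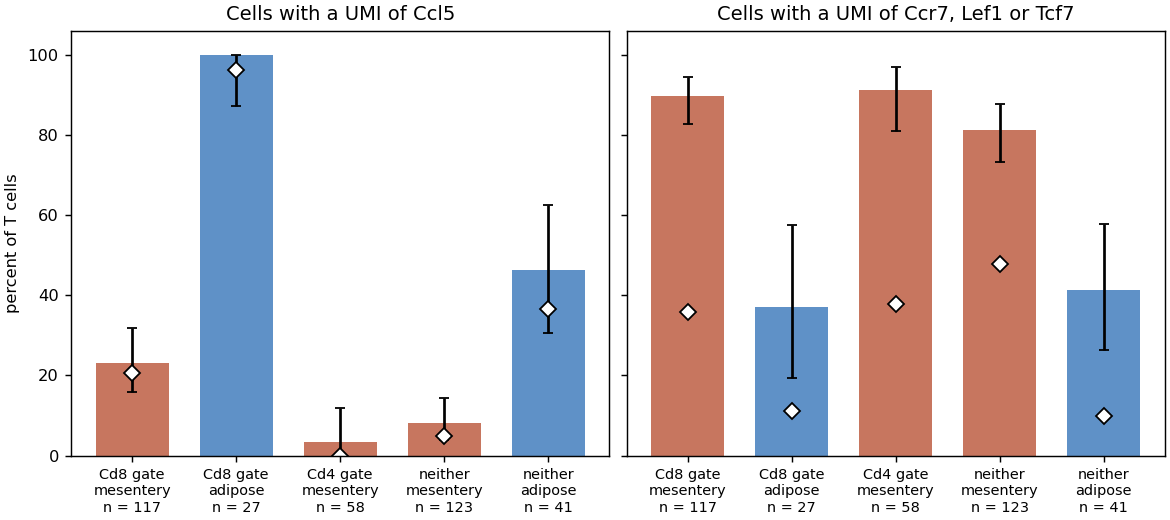
Share of T cells with a UMI of Ccl5 (left) and of any of 3 naive genes (right), by co-receptor gate and tissue, in percent. Bars are all UMIs with exact 95% intervals and diamonds the same cells thinned to 500 UMIs; the single adipose cell of the Cd4 gate is not drawn. Ccl5 is at 23.1% of mesenteric and 100% of adipose Cd8-gated cells.

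Cells with and without Ccl5 differed in the other genes they held, described here without a test. Of 86 cells with Ccl5, 73 had Nkg7, 55 the memory-associated surface gene Ly6c2, 31 Cxcr6, 31 Cxcr3, 41 S100a4 and 47 Cd8b1. Of 281 cells without it, 79 had Nkg7, 38 Ly6c2, 35 Cxcr6, 16 Cxcr3 and 37 S100a4. Ccr7 was in 12 of the 86 and 142 of the 281, Lef1 in 24 and 162, and Dapl1 in 5 and 87. Adipose gave 47 of the 86 cells and 22 of the 281, and their medians were 2381.5 and 3327 UMIs.

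For tests on genes, the UMIs of all T cells of a library were summed and levels are given as TMM-scaled CPM, the UMIs of a gene relative to all UMIs of that sum. A summed level cannot tell more cells with a gene from more RNA in each. The adipose chow library of run B had fewer than 10 T cells and was left out, so adipose on chow is 1 library and adipose as a whole 3, with 363 cells in the 7 sums. Without a term for the run, edgeR's quasi-likelihood test between the tissues passed 0 of 5926 genes (0.0% called). The unadjusted p was under 0.05 for 484 of them, and DESeq2 called 1, Ccl5. The runs pair the libraries, and edgeR fitted with a block for the run found 160 genes (2.70%), 136 higher in mesentery (2.29%) and 24 higher in adipose (0.405%). Positive log2 differences below mean higher in mesentery. The median over all 5926 genes was itself 0.57, so values are to be read against that shift.

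The count of 160 rests on few pools. With the chow mesentery of run A left out it was 51, and 80 with that of run B left out. Leaving out the high fat diet mesentery gave 28 for run A and 93 for run B, and leaving out the high fat diet adipose gave 169 and 225. The contrast cannot be formed without the only adipose library on chow, which had 18 T cells. Between the tissues with high fat diet alone, edgeR with the block called 30 genes, and 8 once that chow library was left out of the fit. Of the 160 genes, 19 were called in each of the 6 fits that left out 1 library, among them Ccl5, S100a6, S100a4, Klf2, Tcf7, Igfbp4, Dapl1, Ifi27l2a and Jun.

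Naive and recirculating genes were called higher in mesentery for 6 of 9 list members and lower for none, with a median log2 difference of 2.21. The 6 are Ccr7, Klf2, Tcf7, Lef1, Igfbp4 and Dapl1. Dapl1 (ENSMUSG00000026989) stood at 441 and 240 CPM in the run A mesentery on chow and high fat diet and at 314 and 429 CPM in run B. In adipose it was at 28.7 CPM on chow A, 0 on high fat diet A and 69.5 on high fat diet B. The tissues did not overlap, and the log2 difference was 3.32 ± 0.55 (SE), with 2.61 within run B. The adjusted p of edgeR was 9.66e-07 with the block and 0.595 without it.

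Tcf7, a factor of naive and memory T cells, was at 359, 393, 401 and 394 CPM in mesentery (chow A, high fat diet A, chow B, high fat diet B) and at 28.7, 131 and 222 CPM in adipose (chow A, high fat diet A, high fat diet B). All mesenteric libraries were above all adipose ones, and the log2 difference was 2.37 ± 0.52 (edgeR adjusted p 0.00126 with the block). Lef1, its close relative, was at 449, 388, 420 and 282 CPM and at 201, 56.1 and 167 CPM in the same order, a difference of 1.32 ± 0.37 (edgeR adjusted p 0.0235 with the block). That call held in 2 of 6 fits with 1 library left out.

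Klf2 and Ccr7 depended on the run as well as on the tissue. Klf2, which keeps naive cells recirculating, was at 3628 and 5146 CPM in the run A mesentery and at 276 and 379 CPM in run B. In adipose it was at 602, 1028 and 181 CPM, so adipose of run A lay above mesentery of run B, and the tissues were apart only within a run. Its log2 difference was 2.21 ± 0.29 (edgeR adjusted p 2.22e-11 with the block, 0.603 without). Ccr7 was at 622, 980, 138 and 85.0 CPM in mesentery and 86.0, 150 and 41.7 CPM in adipose, a difference of 2.65 ± 0.43 (edgeR adjusted p 7.98e-07 with the block). Klf2 had a UMI in 67.7% and Igfbp4 in 40.5% of endothelial barcodes, so part of their UMIs could be free RNA; this was not tested. Ccr7, Tcf7, Lef1 and Dapl1 were at 0.035 to 0.415% there.

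Cytotoxic genes went the other way: of 12 tested, 4 were called higher in adipose and none in mesentery, with a list median of -1.02. Ccl5 (ENSMUSG00000035042), a chemokine of effector and memory T cells and NK cells, was at 898, 3500, 395 and 1510 CPM in mesentery and 8975, 11440 and 3878 CPM in adipose. Every adipose library lay above every mesenteric one. The log2 difference was -2.40 ± 0.23 (edgeR adjusted p 1.75e-22 with the block, 0.595 without). With the block it stayed between -2.60 and -2.34 in the 6 fits with 1 library left out. In the high fat diet mesentery of run B, 1 cell gave 267 of the 391 UMIs of Ccl5.

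Nkg7, a granule membrane protein, was at 524, 532, 273 and 317 CPM in mesentery and 746, 1907 and 639 CPM in adipose, again without overlap. The difference was -0.96 ± 0.28 (edgeR adjusted p 0.0308 with the block), called in 3 of the 6 fits. Ccl4, a chemokine of activated T cells, was at 7.88, 78.6, 3.13 and 0 CPM in mesentery and 86.0, 1084 and 27.8 CPM in adipose (difference -3.25 ± 0.78, edgeR adjusted p 0.00432 with the block). The Ccl4 call held in 3 of the 6 fits. Gzma (granzyme A), the fourth call, rests on single cells. It had 117 UMIs in 11 cells, 26 of 27 UMIs of the run A chow mesentery and 22 of 23 of the run A high fat diet adipose came from 1 cell each, and both run B high fat diet libraries were at 0. With the block its difference ranged from -4.36 to 1.84 with 1 library left out. Prf1, Klrd1 and Gzmb were tested and not called, with log2 differences of -0.16 ± 0.91, -0.53 ± 0.56 and -2.85 ± 1.25.

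Of the 12 memory and residency genes tested, Cxcr6, S100a4 and S100a6 were higher in adipose and Cd69 in mesentery. S100a6 (ENSMUSG00000001025), a calcium binding protein of activated and memory T cells, was at 264, 435, 376 and 1247 CPM in mesentery and 1262, 2038 and 2599 CPM in adipose. The lowest adipose library, chow A, was just above the highest mesenteric one, high fat diet B. A single cell gave 24 of the 44 UMIs in the former and 62 of the 323 in the latter. The lack of overlap therefore depends on single cells for S100a6. Its difference was -2.00 ± 0.26 (edgeR adjusted p 2.22e-11 with the block). S100a4, of the same family, was at 82.7, 282, 191 and 560 CPM and at 430, 804 and 973 CPM (difference -1.63 ± 0.33, edgeR adjusted p 0.000289 with the block). Cxcr6, a chemokine receptor of tissue-resident T cells, was at 59.1, 50.9, 28.2 and 255 CPM and at 229, 168 and 334 CPM (difference -1.85 ± 0.45, edgeR adjusted p 0.00432 with the block). For both, the run B high fat diet mesentery overlapped adipose. Cd69, an early activation and residency marker, was at 792, 1022, 298 and 116 CPM and at 86.0, 430 and 125 CPM, a difference of 2.17 ± 0.40 that was -0.11 within run B. S100a6 had a UMI in 31.9% of T cells and in 78.8% of endothelial barcodes, S100a4 in 21.3% and 6.69%, Cxcr6 in 18.0% and 0.041%. The endothelial source of S100a6 was not tested.

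Outside the lists, Ctla2a and Lgals1 were higher in adipose. Ctla2a, a protease inhibitor, was at 162, 324, 141 and 618 CPM in mesentery and 688, 1047 and 917 CPM in adipose (difference -1.69 ± 0.29, edgeR adjusted p 6.13e-06 with the block). Lgals1 (galectin 1) was at 225, 384, 307 and 448 CPM and at 1004, 860 and 723 CPM (difference -1.46 ± 0.28, edgeR adjusted p 4.60e-05 with the block). Neither overlapped between tissues, but both are also endothelial genes here, with a UMI in 77.9 and 47.2% of endothelial barcodes. Among the largest differences were Klra9, Ptpn13, Fgl2, Dgat1, Sytl3 and Bcl2a1d, at -4.80 to -2.06, none with more than 17 UMIs in a library. Klra9, an NK cell receptor, had 17 of its 28 UMIs in 1 cell of the run B high fat diet mesentery. Ccr2, a receptor of inflammatory homing, was lower in mesentery by 2.51 ± 0.67 with the block but turned to 2.16 without the block once cells with markers of other cell types were left out.

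**Figure D3:**
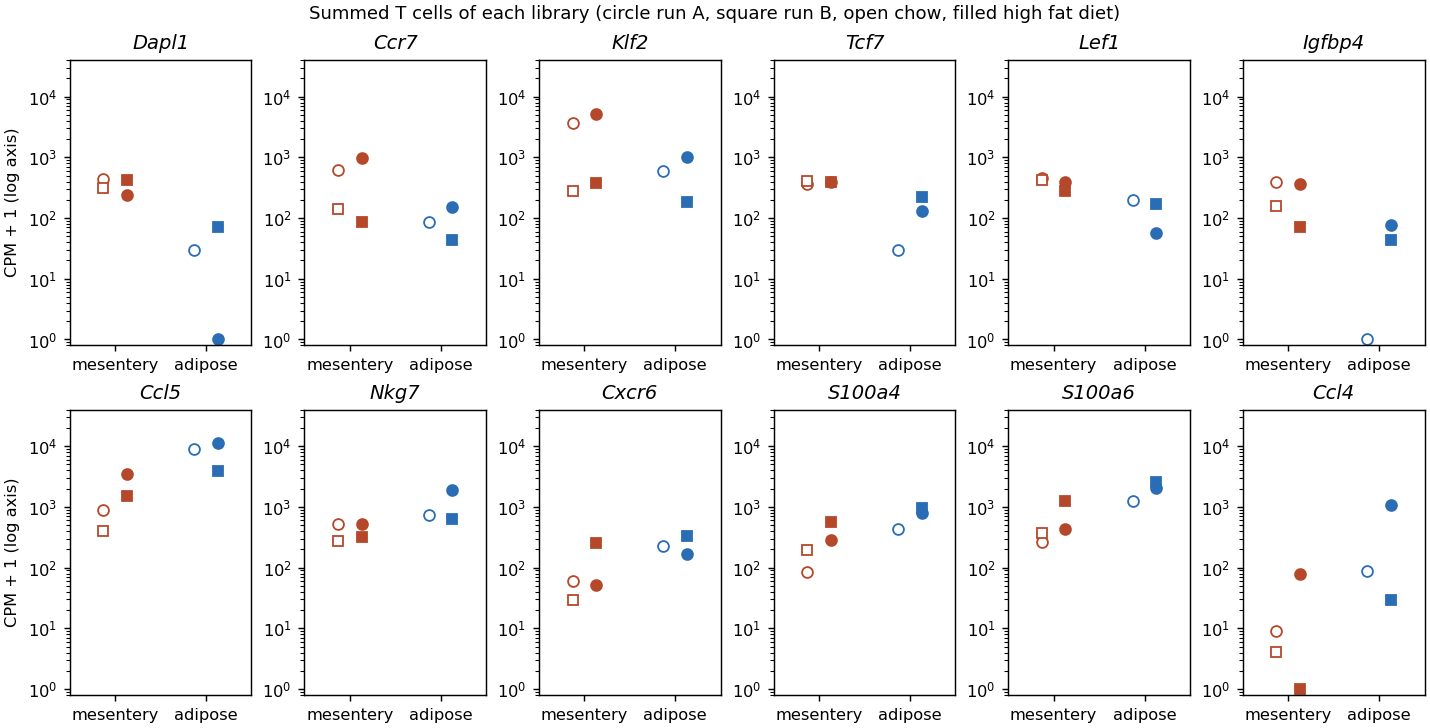
Levels of 12 genes in the summed T cells of the 7 libraries, as CPM plus 1 on a log axis. Circles are run A and squares run B, open symbols chow and filled symbols high fat diet, brown mesentery and blue adipose. Dapl1 and Tcf7 lie higher in every mesenteric library, and Ccl5 and Nkg7 in every adipose one. Klf2 differs more between runs than between tissues, and Ccr7 differs between both.

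Promoters of genes on both sides of this contrast are shown because the genes moved together. They are the 250 bases before the start site from RefSeq (build GRCm38.p6), 5′ to 3′ on the plus strand: S100a6 (chr3:90612644-90612893) and Cxcr6 (chr9:123806227-123806476), higher in adipose, then Klf2 (chr8:72318812-72319061) and Igfbp4 (chr11:99040994-99041243), higher in mesentery. Capitals mark the RUNX core TGTGGT and the KLF core CACCC on either strand (ACCACA and GGGTG on the opposite one); no 2 matches overlap.
S100a6: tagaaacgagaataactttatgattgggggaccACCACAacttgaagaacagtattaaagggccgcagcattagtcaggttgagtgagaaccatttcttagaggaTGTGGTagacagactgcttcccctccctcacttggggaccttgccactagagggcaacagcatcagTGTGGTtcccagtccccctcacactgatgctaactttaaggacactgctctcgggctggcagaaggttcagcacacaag
Cxcr6: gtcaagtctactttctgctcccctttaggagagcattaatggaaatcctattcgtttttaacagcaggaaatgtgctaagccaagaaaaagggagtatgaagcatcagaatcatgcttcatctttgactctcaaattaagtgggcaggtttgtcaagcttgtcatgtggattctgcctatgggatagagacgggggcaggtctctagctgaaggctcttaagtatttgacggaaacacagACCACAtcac
Klf2: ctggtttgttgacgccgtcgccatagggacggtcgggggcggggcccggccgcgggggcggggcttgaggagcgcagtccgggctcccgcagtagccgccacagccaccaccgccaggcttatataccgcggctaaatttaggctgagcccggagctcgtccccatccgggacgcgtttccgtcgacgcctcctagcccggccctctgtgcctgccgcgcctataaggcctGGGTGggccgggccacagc
Igfbp4: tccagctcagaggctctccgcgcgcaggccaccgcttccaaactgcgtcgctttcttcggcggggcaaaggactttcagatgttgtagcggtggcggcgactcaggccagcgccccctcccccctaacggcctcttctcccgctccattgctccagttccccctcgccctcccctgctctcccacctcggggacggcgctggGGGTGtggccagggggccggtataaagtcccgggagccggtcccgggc
The S100a6 window holds 3 RUNX cores, at 217, 145 and 79 bases before the start site by their first base, and Cxcr6 holds 1, while Klf2 and Igfbp4 hold 1 KLF core each. Of 32851 promoter windows of this length, 14.05% hold a RUNX core and 52.01% a KLF core. Of the list genes called with the block, 8 of the 10 higher in adipose and 11 of the 16 higher in mesentery have a window in the table, and the RUNX core is in 5 and 0 of them, the KLF core in 4 and 8. Genes and motifs were chosen after the values were known, and a match is no evidence of binding.

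Interferon genes and lineage genes made up other calls. Ifi27l2a, an interferon-induced gene, was at 465, 842, 1113 and 1070 CPM in mesentery and 86.0, 206 and 111 CPM in adipose, without overlap (difference 2.73 ± 0.40, edgeR adjusted p 6.73e-09 with the block). It was the 1 called of 9 interferon genes, and the list median was 1.87. It is also an endothelial gene, with a UMI in 42.1% of endothelial barcodes. Of 16 receptor and signalling genes, Trbc1 and Bcl11b were called higher in mesentery (in 4 and 1 of 6 fits with 1 library left out), Trac was not (0.69 ± 0.30), and the list median of 0.45 was below the 0.57 of all genes. Cd4 was higher in mesentery by 4.59 ± 1.42 (edgeR adjusted p 0.0459 with the block, 0.595 without), from 72.1 to 104 CPM against 0, 0 and 27.8 CPM. The Cd4 call held in 1 of 6 fits with 1 library left out. Cd8a and Cd8b1 were not called (0.51 ± 0.39 and 0.57 ± 0.32). Gpr183, a receptor that guides lymphocytes within lymph nodes, was at 244, 314, 191 and 162 CPM in mesentery and 0, 150 and 111 CPM in adipose. Its fitted difference of 4.68 ± 1.10 includes the 0 UMIs of the 18 T cells of adipose on chow, and within run B it was 0.54. Slamf6 and Rgcc, named by size of change, also had 0 UMIs in that library. Slamf6 averaged 195 CPM in mesentery and 51.3 CPM in adipose, with a fitted difference of 4.88 ± 1.10 and 1.45 within run B. Rgcc averaged 212 and 57.5 CPM, with overlapping tissues, a fitted difference of 5.01 ± 1.06 and 1.63 within run B. Nfe2l2, a stress response factor, had 62 UMIs in the mesenteric libraries and none in those of adipose. It was 3.17-fold higher than a floor of 3 UMIs over the adipose group. For Nfe2l2 that floor allows for counting error in adipose but not for the spread between pools. Its call was lost in each of the 5 fits with 1 library left out that tested it. Rgcc and Nfe2l2 had a UMI in 56.4 and 50.7% of endothelial barcodes, Slamf6 in 0.012%. Tubb5, a tubulin, was called higher in mesentery (1.62 ± 0.41, with 0.29 within run B). No gene of the Cd8 lineage (4 tested), T helper (4), checkpoint (3), gamma delta (6), NK (7), lipid (6) or endothelial (4) lists was called.

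Some genes listed for type 2 innate lymphoid cells, another cell type that lacks an antigen receptor, were higher in adipose like the cytotoxic calls. Of 6 list genes 3 were tested, and Il1rl1, which is also on the regulatory list, and Rora were called (-2.89 ± 0.84 and -1.54 ± 0.38). The third tested gene was not called. With 3 genes, the list median of -1.54 is the value of Rora itself. The summed level of the list was 148 to 293 CPM in the mesenteric libraries and 302 to 831 CPM in the adipose ones, the library of 4 T cells included. None of the 6 genes was at 0, but Il5 had 4 UMIs in 1 cell and Ccr8 had 1 UMI. The Il1rl1 call held in 1 of 6 fits with 1 library left out, and its difference was 0.03 within run B. The Rora call held in 4 of 6, with -0.34 within run B. The part of such cells in the adipose levels of other genes was not tested.

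Jun and Fos, immediate early genes, and the chaperone gene Hspa1a were at higher levels in both run A mesenteric libraries than in both of run B; the run itself was not tested. Jun was at 1840 and 2848 CPM in the mesentery of run A and at 132 and 92.7 CPM in run B; in adipose it was at 86.0, 1271 and 181 CPM. Fos was at 1481, 1285, 50.2 and 30.9 CPM in mesentery and 201, 486 and 13.9 CPM in adipose. Hspa1a was at 1682, 1521, 56.4 and 23.2 CPM and at 0, 486 and 0 CPM. With the block edgeR called Jun, Fos and Junb higher in mesentery, 3 of the 10 genes of the list, by 2.51 ± 0.38, 2.14 ± 0.36 and 1.35 ± 0.29. Within run B the differences of Jun and Junb were -0.96 and -0.35, and Fos and Junb turned sign in the fit without a block when either run A mesentery was left out. In endothelial barcodes Jun had a UMI in 59.0% and Junb in 32.6%. Whether handling of the cells has a part in these genes was not tested.

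Ribosomal protein genes, picked after their values were seen, were called higher in mesentery for 59 of 88 genes and lower for none, with a median of 0.82 against 0.57 for all genes. They make up 59 of the 136 genes higher in mesentery. With the shift of all genes in view, their excess was small next to that of the naive list.

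The effect of diet on the T cells was smaller. Without the run edgeR passed 0 of 5926 genes (0.0%). The unadjusted p was under 0.05 for 187, and DESeq2 called 0. Fitted with a block for the run, edgeR found 8 (0.135%), 7 higher on high fat diet and 1 lower, while DESeq2 with the block called 1. The 8 are Jun, Fosb, Ccl3, Ccl4, Ccl5, Ifng and the lymphatic chemokine Ccl21a as higher and the histone gene Hist1h1b as lower. Leaving out the chow mesentery gave 3 calls for run A and 13 for run B, leaving out the high fat diet mesentery 4 and 5, and leaving out the high fat diet adipose 21 and 18. The median over all genes was 0.27 toward high fat diet.

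Ifng (interferon gamma) and Ccl5 were called higher on high fat diet. Ifng was at 19.7 and 0 CPM in mesentery on chow (runs A and B) and 162 and 3.86 CPM on high fat diet, and at 28.7 CPM in adipose on chow A and 393 and 41.7 CPM on high fat diet. Run B mesentery held 0 and 1 UMI, so the contrast rests on run A, where 3 of 90 mesenteric T cells had a UMI with chow and 11 of 85 with high fat diet. Its log2 difference was 3.41 ± 0.63 (edgeR adjusted p 0.000127 with the block), and the call was lost without either run A mesentery. Ccl5 differed by 1.09 ± 0.23 (edgeR adjusted p 0.00205 with the block, 0.865 without), and the call was lost in 3 of 6 fits with 1 library left out. In mesentery alone its difference was 1.95 ± 0.28 (edgeR adjusted p 3.52e-08 with the block). The number of mesenteric cells with Ccl5 did not follow: 14 of 90 and 13 of 85 in run A, 6 of 74 and 6 of 49 in run B. A single cell gave 232 of 757 and 267 of 391 UMIs on high fat diet. Both S100a4 and S100a6 were also called in mesentery with the block, higher on high fat diet by 1.62 ± 0.33 and 1.29 ± 0.30.

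The other diet calls came from few cells or from 1 run. Ccl3 had 36 UMIs in 7 cells, all in run A on high fat diet, and Ccl4 had 58 of its 83 UMIs in the run A high fat diet adipose. Of the 52 UMIs of Hist1h1b in the run B chow mesentery, 46 came from 1 cell. Ccl21a had a UMI in 10.1% of T cells and 13.0% of endothelial barcodes. Of its 58 UMIs in T cells, 27 lay in 22 cells of the run A high fat diet mesentery and 22 in the run A high fat diet adipose, 13 of those in 1 cell. Whether these UMIs are free RNA was not tested. Jun and Fosb differed by 2.24 ± 0.38 and 1.75 ± 0.37, and both turned sign without a block when the run A high fat diet mesentery was left out (-0.22 and -0.65). In the fit without a block, the smallest p values belonged to Yy1, 4932438A13Rik, Tmem176b, Cox14 and Hivep2 for higher and Rab11fip1, Stmn1, Snapc5, Cxcl2 and Elavl1 for lower levels, each at an edgeR adjusted p of 0.865. None of the 9 naive genes, the 10 regulatory genes or the 6 lipid genes tested was called for diet with the block, and the medians of those lists were 0.59, -0.72 and 0.92.

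Cd8-gated and Cd4-gated T cells of the 4 mesenteric libraries were compared within libraries, with the 3 gating genes taken out of the test. edgeR with the library as block called 30 of 1547 genes (1.94%), 15 higher in Cd8-gated (0.97%) and 15 in Cd4-gated cells (0.97%), and the median difference over all genes was -0.02. Of the 13 listed cytotoxic genes, 5 passed the count filter, and all 5 were higher in Cd8-gated cells. A gene with few UMIs in the Cd4 gate could pass that filter only through the Cd8 gate. The 5 of 5 is therefore a description and says nothing of the listed genes that were not tested. Ccl5 was at 3611 ± 3046 CPM (SD, n = 4) against 145 ± 227, a log2 difference of 4.62 ± 0.51 (edgeR adjusted p 4.5e-05), and Nkg7 at 859 ± 287 against 69.7 ± 99.5 CPM, a difference of 3.47 ± 0.53. Klrd1 and the cathepsin Ctsw differed by 4.67 ± 0.73 and 2.85 ± 0.43 and Gzma, at 0 in the Cd4 gate of all 4 libraries, had a UMI in too few cells to be more than a value (6.15 ± 1.34, groups overlapping). Ly6c2, a surface gene of memory CD8 cells, had the smallest p, at 623 ± 65.2 against 7.0 ± 14.1 CPM (difference 6.04 ± 0.54).

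The lineage factor Runx3, which shapes CD8 cells, was higher in the Cd8 gate by 2.11 ± 0.45, with no overlap between 267 ± 111 and 63.7 ± 34.3 CPM. Of the 9 naive genes, Dapl1 was higher in Cd8-gated cells, by 1.97 ± 0.31, and Tcf7, Lef1 and Ccr7 were not called (0.02 ± 0.31, 0.35 ± 0.27 and 0.67 ± 0.28). Cd4-gated cells were higher for Maf, a factor of helper and gamma delta T cells, at 331 ± 360 against 17.7 ± 6.6 CPM (difference -4.18 ± 0.50), and for the costimulatory receptor Tnfrsf4 (OX40), at 195 ± 123 against 6.1 ± 7.1 CPM (-4.85 ± 0.78). Cd5 and Cd6, which temper receptor signals, were higher there by 1.62 ± 0.30 and 1.59 ± 0.34, stated as Cd4 over Cd8, as was the folate receptor family member Izumo1r by 2.00 ± 0.46, with overlapping gates and that sign in 3 of 4 libraries. The count was 15 without the run A chow mesentery and 49 without the run A high fat diet mesentery, DESeq2 called 68 (67 higher and 1 lower), and without cells holding markers of other cell types edgeR called 1, on 908 genes.

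**Figure D4:**
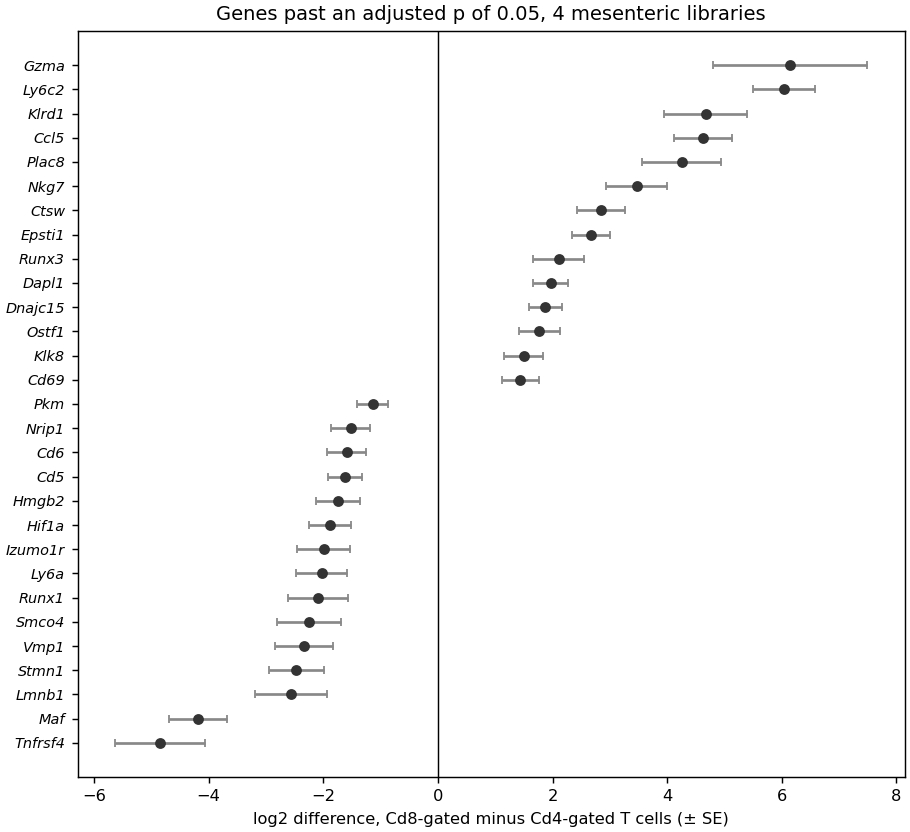
Log2 difference between Cd8-gated and Cd4-gated T cells, with its SE, for 29 of the 30 genes called in the 4 mesenteric libraries. Positive values are higher in Cd8-gated cells; Ly6c2, Ccl5 and Klrd1 lie at 4.62 to 6.04 and Maf and Tnfrsf4 at -4.85 to -4.18.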

How the data were processed

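Single-cell RNA was measured in 8 libraries of sorted cells. The deposited matrices hold raw UMI counts for each gene in each barcode, made with 10x 3' kit version 3.1 per the labels' protocols; the file headers name software version 3.0.2 for run A and 5.0.0 for run B, so the processing differs with the run. The submitters' processing notes name build mm10 and Seurat 4.3.0. The 30406 gene identifiers present in both feature lists were used, and cells were filtered as stated with the T cell rule. The other deposited files hold gene names and barcodes, with no measurement.

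Scrublet, run through scanpy 1.11.5, scored doublets. Its automatic cut-off took 48 cells (0.2%) and was not used; 766 were taken by the expected rate of 0.8% per 1000 cells; doublets were kept in the main values and left out in an alternative. Shares were tested by exact two-sided permutation on log odds (0.5 added to each count), over 10 tests with Benjamini-Hochberg adjustment. Shares of cells within T cells were taken after thinning to 500 UMIs; 4 cells were too shallow, none of them T cells. UMI counts of T cells were summed per library (at least 10 T cells) and tested with edgeR 4.0.16 (TMM, filterByExpr, group means, 3 residual degrees of freedom without the block), and a gene was called when its Benjamini-Hochberg adjusted value, over every gene tested, was under 0.05; DESeq2 1.42.0 in R 4.3.3 was an alternative. The scripts were tested on simulated data. The run letters pair the libraries, because the labels describe the runs as repeats of the whole experiment, and deviations from group means correlated at 0.49 to 0.68 across 2591 genes of at least 50 CPM over 3 pairs of groups. The fit with the run as block is an alternative, printed beside the gene calls, and the exact test over pairs is printed beside the shares where it gave its smallest p. Nothing says that a pool was drawn more than once per run, so p-values measure at most the spread between 2 pools per group. In the gene tests adipose on chow was 1 library and gave no spread of its own, and the block used up a further residual degree of freedom. edgeR also shares its estimate of the spread among genes. A small p with the block therefore does not measure the spread between pools alone. The SE printed with a log2 difference is the absolute difference divided by the square root of edgeR's F statistic. Like that p, it does not measure the spread between pools alone.

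The members, gene lists and tests were chosen with earlier results of these data known. In each list, genes with at least 20 UMIs over all T cells were counted, the 4 with the most UMIs and every gene called were named, and in each comparison the 10 largest changes in each direction with the same sign in both runs, or, with fewer than 5 calls, the 5 smallest p values. Some list genes are not reported here and were left out of the list counts, the B cell rule and the naive share, whose 3 genes were therefore set after the data were seen. B cells were defined after the files were seen. The sort gate and the reporter were not analysed here.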

Additional observations from a re-analysis of the deposited data

Results flagged for a closer look

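The diet effect differed between the tissues for 5 genes, by edgeR's interaction term with the run as block (Benjamini-Hochberg adjusted p under 0.05, over 5926 genes tested). Without the block 0 genes passed, with 200 at an unadjusted p under 0.05, and with the block 0 passed once the run B high fat diet mesentery was left out and 15 once the run A chow mesentery was. Values are the log2 diet effect in mesentery minus that in adipose, and adipose on chow is 1 library of 18 T cells. Tnfrsf4 had 5.99, with diet effects of 1.52 ± 0.40 (SE) in mesentery and -4.47 ± 0.75 in adipose; 72 of its 80 UMIs in mesentery on high fat diet B and 16 of its 22 UMIs in adipose on chow A came from 1 cell each. Stmn1, a microtubule regulator of dividing cells, had 9.29, and its 6 UMIs in adipose on chow A all came from 1 cell. Hspa1a had -9.72, with 24 of its 26 UMIs in adipose on high fat diet A in 1 cell and 0 UMIs in adipose on chow A. Jun had -3.95 and Fosb -3.35, from 3 and 5 UMIs in adipose on chow A.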

How the results depend on the processing

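With the run as a replicate block, the pairing given by the labels, the counts of genes called rose from 0 to 160 (tissue), 8 (diet), 8 (diet, mesentery only), 7 (diet, adipose only), 30 (tissue, chow only), 30 (tissue, high fat diet only) and 5 (interaction). Without the filter on low counts they were 22, 2, 2, 1, 6, 2 and 1 in that order, and DESeq2 called 1 for tissue; leaving out 1 library gave 0 in each of the 7. In the fit with the block, alternatives chosen after the data were seen gave 28 to 225 calls for tissue when 1 library was left out, and for diet 3 to 21, 13 with all 8 libraries, 16 without called doublets and 1 with DESeq2. The Cd8 against Cd4 count of 30 became 68 with DESeq2, 114 without the filter, 1 without cells holding markers of other types and 1 with no replicate block, and ranged from 15 to 49 with 1 library left out. The alternative minimum of 20 cells per gate left no library and was not run. The cause of these moves was not tested.

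No share test passed the threshold under any setting tried. Differences in log odds changed sign as follows. With 1 library left out they ranged from -0.049 to 1.40 for the T cell share by diet, from -0.58 to 0.92 for the T share of T plus B cells by diet, from -0.30 to 0.80 for the Cd8 share by tissue and from -0.891 to 0.027 for the naive share by diet. The Cd8 share by tissue was -1.85 unthinned and -0.18 with the replicate block, and the Foxp3 share by tissue 0.54 unthinned. The other calls of shares kept their sign and side with the block.

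Of the genes named, these turned sign without a block. With 1 library left out the tissue difference ranged from -0.58 to 3.71 for Fos, -0.61 to 1.97 for Junb, -5.29 to 2.00 for Gzma and -3.45 to 2.04 for Il1rl1, and the diet difference from -0.22 to 3.14 for Ccl4, -0.65 to 2.69 for Fosb and -0.22 to 3.19 for Jun. Without cells holding markers of other types, Ccr2 was at 2.16 for tissue and Stmn1 at 1.19 for diet. Depth limits the adipose values most, with 69 T cells at a median of 1739 UMIs.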
